A study of Mus musculus with 4514 samples.

Results

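The comparison set hepatocytes with a tetraploid DNA content (4N) against hepatocytes with a diploid DNA content (2N) from the livers of mice at postnatal day 60 (P60). The cells were the mSTRT-seq cells, a well-based single-cell method with spike-in RNA, that the labels give as P60 and 4N or 2N. They are the cells titled P60_4N_1 to P60_4N_144 and P60_2N_1 to P60_2N_125 without a gap, 1 cell a sample and together 5.96% of the 4514 samples of the series. The 83 cells labelled 8N at P60 are given beside them as values only, as is the material of the same age that lies outside the cells, the 4N and 2N nuclei and bulk populations sorted for the zones around the portal vein (PV) and the central vein (CV). All cells and nuclei carried Alb-Cre and Rosa-tdTomato, a recombinase driven by the albumin promoter, which is active in hepatocytes, and a red fluorescent reporter, and no treatment is named. The labels name no animal, plate or day, so the cells of a ploidy class form 1 pool, and no value below has a replicate, a test or a p-value. A ploidy class can therefore not be told apart from the animals and plates its cells came from. The ploidy itself rests on the label, since DNA content is not part of the count table.

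Hepatocytes become polyploid after birth by going through the cell cycle without completing cell division, and the adult mouse liver holds diploid, tetraploid and octoploid cells side by side. The liver lobule has an axis from the portal vein, where blood enters, to the central vein. Pericentral hepatocytes make glutamine, oxidise drugs and start bile acid synthesis, and periportal hepatocytes make urea and glucose. Cyp2e1, an ethanol-oxidising cytochrome P450, and Cyp2f2, a naphthalene-oxidising cytochrome P450, mark the pericentral and the periportal end.

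The 2N pool held 20197242 gene counts and the 4N pool 24874880. A 2N cell had between 15673 and 517088 counts with a median of 149666, and a 4N cell between 34593 and 594420 with a median of 148166. Spike-in RNA (ERCC) made up 1.74% of the counts of 2N cells and 1.12% of those of 4N cells, and it was left out of every CPM (counts scaled to the same total of gene counts in each cell or pool). The cells were hepatocytes by their markers: albumin (Alb) was counted in every cell, at 10038 CPM or more in 2N and 6840 CPM or more in 4N cells. The marker lists of endothelial cells, macrophages, stellate cells, erythroid cells, and lymphocytes with neutrophils had 0 genes over the measurement limits. Of the 13 macrophage markers in the table, 9 had no count in any 2N cell and 7 no count in any 4N cell, and the summed macrophage level of a cell did not pass 67.2 CPM. Summed erythroid markers reached 5698 CPM in a 2N cell and 1209 CPM in a 4N cell, with medians of 0 and 4.17 CPM. Of the 7 cholangiocyte markers 2 were measured, and Spp1 (osteopontin) was at 31.1 CPM in the 2N and 19.1 CPM in the 4N pool. Y-linked genes had a count in all but 1 2N cell and all but 1 4N cell, and Xist in 2 and 3 cells.

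Both pools changed character along the cell numbers in their labels, and this touches nearly every result below. The labels do not say what the number stands for, and nothing ties a number in one pool to the same number in the other. Gene counts per ERCC count moved in blocks, with 3 lasting steps in the 2N and 2 in the 4N pool. The last lasting step lay before P60_2N_34 in the 2N pool and before P60_4N_113 in the 4N pool. Cells from there on are called cells with later numbers, 92 2N cells (73.6% of them, exact binomial interval 65 to 81.1%) and 32 4N cells (22.2%, 15.7 to 29.9%). The 2 pools thus hold the earlier and the later cells in nearly opposite shares. In both pools the later cells had far lower levels of genes that male mouse liver expresses more than female liver. The summed level of 15 such male-biased genes had a median of 5808 CPM in the later and 41577 CPM in the earlier 2N cells, and of 4735 CPM in the later and 22425 CPM in the earlier 4N cells. This split, and the split by lobule position below, were chosen after the data were seen.

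**Figure D1:**
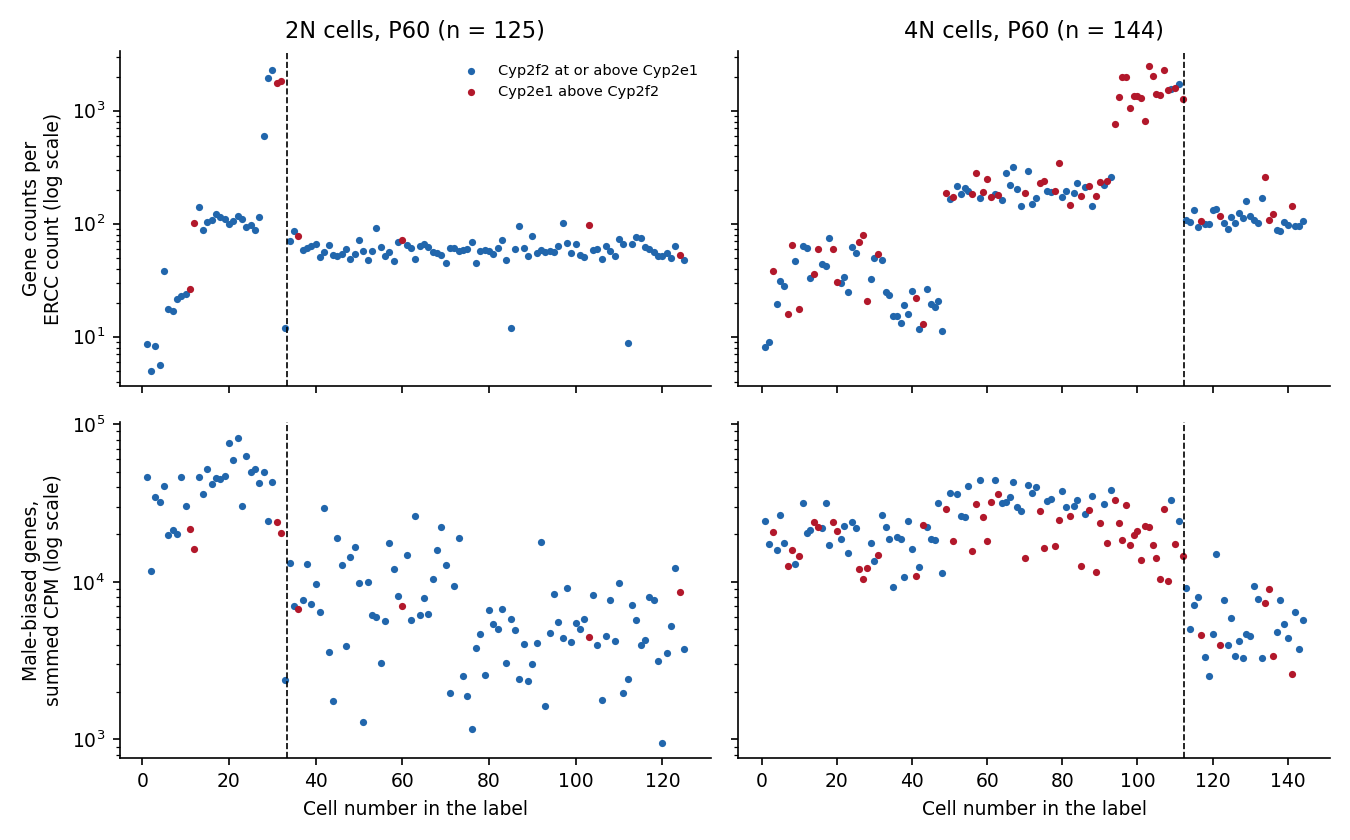
Each point is 1 cell, placed by the number in its label (x axis) and by its gene counts per ERCC count (top) or its summed CPM of 15 male-biased genes (bottom), both on log scales; red cells have Cyp2e1 above Cyp2f2, and the dashed line is the start of the later numbers (P60_2N_34 and P60_4N_113). The later cells of both pools form 1 level in the upper panels and sit low in the lower panels, and the 19 cells just before that line in the 4N pool hold 17 red cells.

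The first difference between the ploidy classes was in the markers of lobule position. Cyp2e1 was above Cyp2f2 in 8 2N cells (6.4%, exact binomial interval 2.8 to 12.2%), in 56 4N cells (38.9%, 30.9 to 47.4%) and in 38 of 83 8N cells (45.8%, 34.8 to 57.1%). The intervals of 2N and 4N do not overlap, but they cover the counting of cells only. Among cells with later numbers, the share was 4 of 92 in 2N (4.35%, 1.2 to 10.8%) and 6 of 32 in 4N (18.8%, 7.21 to 36.4%), and these intervals do overlap. Among cells with earlier numbers it was 4 of 33 in 2N (12.1%, 3.4 to 28.2%) and 50 of the earlier cells in 4N (44.6%, 35.2 to 54.3%). The 4N share was thus the higher one in both sets of numbers. When the cells of both classes were cut into 3 equal ranges of the Cyp2e1 to Cyp2f2 ratio, 14 2N and 76 4N cells fell into the Cyp2e1-rich range, a difference of 41.6 percentage points, which was 15.4 points over the later and 37.4 points over the earlier numbers. A score from 4 other markers at each end gave 38.6 points. Few cells lay near equality of both genes, 2 2N and 6 4N cells. The rank correlation across cells between summed pericentral and summed periportal markers, which share a denominator, was -0.776 over all 4N cells and -0.18 over all 2N cells.

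**Figure D2:**
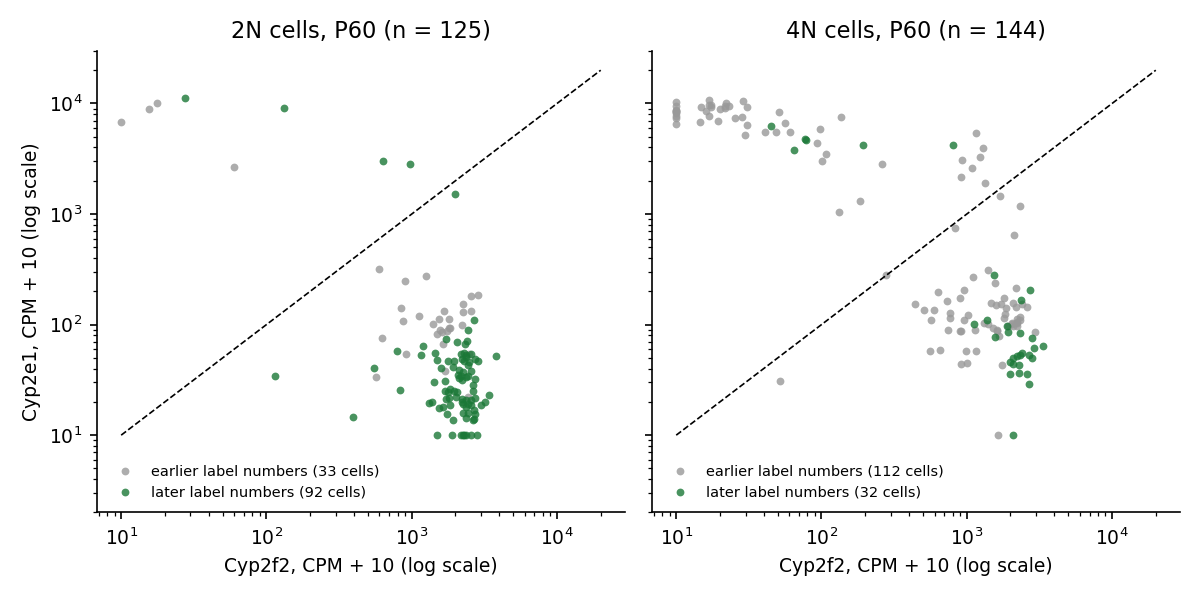
Each point is 1 cell, with its Cyp2f2 level on the x axis and its Cyp2e1 level on the y axis (CPM + 10, log scales); green cells have later label numbers, grey cells earlier ones, and the dashed line marks equal levels. The 2N cells gather at high Cyp2f2 and low Cyp2e1, with 8 (6.4%) above the line, and the 4N cells fall into a cloud on each side, with 56 (38.9%) above it.

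Both marker genes followed that split when all cells were pooled. Cyp2e1 (chr7:140763739-140774987, plus strand, GRCm38) ranged from 0 to 11180 CPM in 2N cells with a median of 30.2, and from 0 to 10697 CPM in 4N cells with a median of 154.80. Its pool level was 550 CPM in 2N (Poisson interval 540 to 560), 2720 CPM in 4N (2700 to 2741) and 3259 CPM in 8N, a log2 difference of 2.31 between 4N and 2N. The single-cell ranges overlap over their whole width, and the medians are far apart. Cyp2f2 (chr7:27119909-27133660, plus strand) ranged from 0 to 3764 CPM in 2N cells with a median of 2035, and from 0 to 3318 CPM in 4N cells with a median of 984. Its pool level was 1982 CPM in 2N (1963 to 2002), 1240 CPM in 4N (1226 to 1254) and 1103 CPM in 8N. The log2 difference between 4N and 2N was -0.68, and it was -0.03 when counts were set against the summed spike-ins of each pool. Within the cells dominated by Cyp2e1, the Cyp2e1 level itself was near equal, 6431 CPM over 8 2N cells and 6588 CPM over 56 4N cells. Within those dominated by Cyp2f2, its level was 2116 CPM over 88 later and 29 earlier 2N cells and 1963 CPM over 87 4N cells. The cells of these 2 sets were chosen by these 2 genes, so the levels inside them are a description only. One 4N cell had equal levels and belongs to neither.

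Of 6907 genes measured, with 10 CPM or more in at least 1 pool and a count in at least 10% of its cells, 492 (7.12%) were at least 1.5-fold higher in the 4N pool and 3.45% at least 1.5-fold lower, and the median log2 difference of all of them was 0.006. These are shares of the RNA of a cell. Counts set against the spike-ins moved the median gene up to 0.667 on the log2 scale. Such values use the summed spike-ins of each pool, by which 4N had 1.57 times the gene counts per ERCC count of 2N. The ratio of the cell medians was 2.07, and gene differences were not computed with it. Of the 7210 genes that then passed the limits, 4373 (60.7%) were higher and 17 (0.236%) lower, so the directions below are relative to the other genes of the cell. The fold of 1.5 is a rule of size, since 1 pool a class allows no test.

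Pericentral genes were higher in the 4N pool as a group. Of 27 pericentral genes measured, 24 were at least 1.5-fold higher and 0 lower, with a median log2 difference of 1.71, and the summed level of all 30 listed was 7363 CPM in 2N and 15370 CPM in 4N. Glul, the glutamine synthetase of the cells next to the central vein, had a median of 0 CPM in 2N cells (highest 244.42) and of 19.1 CPM in 4N cells (highest 3418). The lowest cell of either class had no Glul count, and 44.8% of 2N and 74.3% of 4N cells had at least 1. The Glul pool level was 19.8 CPM in 2N (17.9 to 21.8), 120.84 CPM in 4N (116.56 to 125.24) and 63.5 CPM in 8N, a 6.1-fold difference between 4N and 2N. Few cells carry it: the 5 cells with most Glul counts held 68.2% of those of the 4N pool and 43.8% of those of the 2N pool, and without them, a setting chosen after the data were seen, the levels were 40 and 12.1 CPM in 4N and 2N, a log2 difference of 1.73 in place of 2.61. Slc1a2, a glutamate transporter, had the largest fold of any named gene, 1.19 CPM in 2N, 69.2 CPM in 4N and 124.955 CPM in 8N. It was counted in only 10.4% of 2N and 22.9% of 4N cells, and its highest 4N cell reached 1707 CPM, so few cells carry that value. Lect2, a secreted liver protein, was at 16.0 CPM in 2N and 138.45 CPM in 4N, and Rgn (regucalcin) at 130 and 667 CPM. Gulo, the last enzyme of vitamin C synthesis, was at 54.5 and 265.73 CPM, and Oat, an ornithine aminotransferase, at 96.2 and 450 CPM. Cyp1a2, a drug-oxidising cytochrome P450, was at 159.43 and 627 CPM. Cyp7a1, the rate-limiting enzyme of bile acid synthesis, was at 23.2 and 85.1 CPM. Of 12 targets of Wnt signalling, the pathway that sets the pericentral programme, 5 passed the measurement limits. The summed level of all 12, of which Glul and Lect2 hold most, was 71.7 CPM in 2N and 330.53 CPM in 4N. Tbx3, a transcription factor of that programme, passed the limits through the 4N pool alone, at 2.28 and 13.5 CPM.

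Periportal genes were lower in the 4N pool by smaller folds. Of 27 measured, 11 were at least 1.5-fold lower and 0 higher, with a median log2 difference of -0.58, which was 0.07 when counts were set against the spike-ins. Sds, a serine dehydratase, ranged up to 193.73 CPM in 2N cells with a median of 45, and up to 193.016 CPM in 4N cells with a median of 2.28. Its pool levels were 58.7 and 21.7 CPM. Apoa4, an apolipoprotein of triglyceride-rich particles, had cell medians of 96.2 and 11.5 CPM and pool levels of 155.86 and 52 CPM. Hsd17b13, a lipid droplet protein, was at 1259 and 688 CPM, and Gls2, the liver glutaminase, at 398 and 232.44 CPM. Ass1, a urea cycle enzyme, was at 2471 and 1539 CPM. Pck1, the gluconeogenic enzyme PEPCK, stayed inside 1.5-fold at 3208 and 2151 CPM, as did Hal, a histidine-degrading enzyme, at 528 and 372 CPM.

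The bulk libraries gave a second measure of lobule position, one that holds no single cell. Across 6467 genes, the log2 difference between 4N and 2N cells and that between CV and PV populations (2 libraries each, in which fewer cells of a zone and less RNA per cell cannot be told apart) had a Pearson correlation of 0.395 and a Spearman correlation of 0.215. The points are genes of the same pools and are not independent. Of the genes higher in 4N with a bulk value, 38.7% were at least 1.5-fold higher in CV than in PV, against 14.9% of all measured genes. Of the genes lower in 4N, 33.3% were at least 1.5-fold higher in PV, against 3.94% of all. In the Cyp2f2-dominant cells alone the Pearson correlation was 0.0424. Elovl3 and Cyp2e1 lay high on both axes, while Cd36 was high on the bulk axis and low on the other, and Ccnd3 had a bulk difference of 0.41 on the log2 scale.

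**Figure D3:**
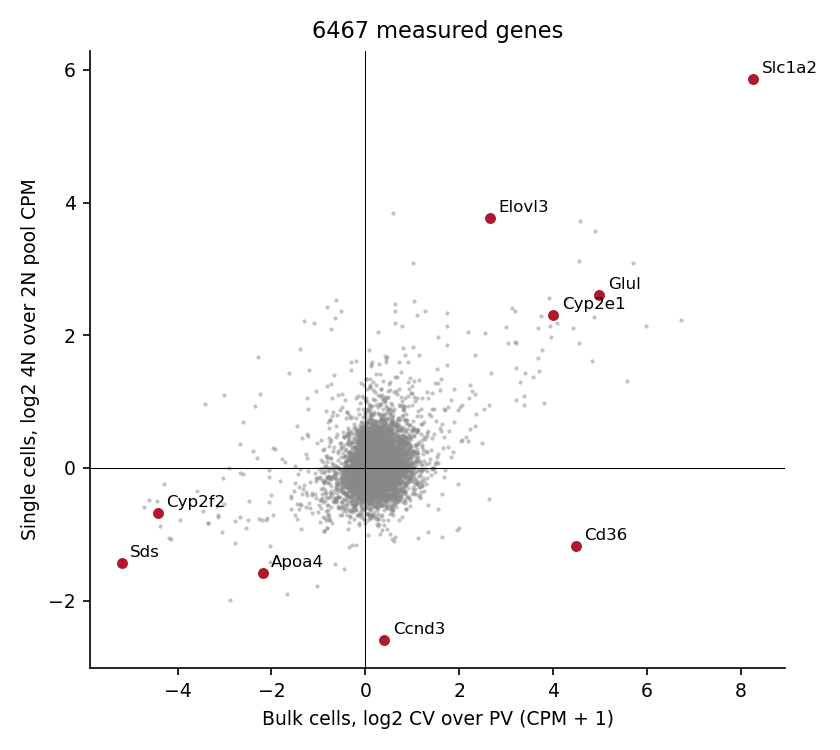
Each point is 1 of 6467 genes, with the log2 difference between CV and PV bulk populations (x axis, CPM + 1, 2 libraries each) and between the 4N and 2N single-cell pools (y axis). Slc1a2, Glul and Cyp2e1 are at the upper right, Sds and Cyp2f2 at the lower left, and Ccnd3 is low on the y axis at 0.41 on the x axis. Against the spike-ins Cyp2f2 was at -0.03 on the y axis.

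Genes of male liver made a second group that was higher in 4N. Of 15 male-biased genes measured, 11 were at least 1.5-fold higher and 0 lower, with a median log2 difference of 1.48. Hsd3b5, a steroid dehydrogenase of male mouse liver, was at 21.5 CPM in the 2N and 122.65 CPM in the 4N pool. Elovl3, a fatty acid elongase, was at 7.43 and 100.74 CPM, Slco1a1, an organic anion transporter, at 70.1 and 361 CPM, and Cyp7b1, an oxysterol hydroxylase, at 45 and 203.58 CPM. Of the 4 Y-linked genes of the list, Ddx3y, an RNA helicase, was at 95.9 and 90.4 CPM and Kdm5d, a histone demethylase, at 6.44 and 10.8 CPM. Kdm5d passed the limit of 10 CPM through the 4N pool alone. Mup20, a urinary protein gene that the list also holds, was at 8149 and 8110 CPM and made up much of the summed level of the list, 11090 and 16419 CPM. Of 11 major urinary protein genes, whose products carry pheromones in urine, 9 were higher, with a median log2 difference of 1.78, and Mup11 was at 367 and 2037 CPM. The genes of that family are nearly identical, and so are those of Cyp2c, Cyp2a, Cyp4a and Saa, and which member a read belongs to is uncertain. Cyp2b9, a cytochrome P450 of the female-biased list, was lower, at 38.7 and 14.3 CPM.

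Genes of this group also differed between earlier and later numbers inside each class. In Cyp2f2-dominant cells with later numbers, Hsd3b5 had no count in any of 88 2N cells nor in any of 26 4N cells. Taking a count of 0 to allow up to 3 cells, the share could be up to 3.41% in 2N and 11.5% in 4N. These limits are not exact binomial intervals. In Cyp2f2-dominant cells with earlier numbers, 65.5% of 29 2N cells and 86.9% of 61 4N cells had an Hsd3b5 count, with medians of 43.8 and 76.8 CPM. These cells were not thinned, with median depths of 63792 counts in 2N and 115800 in 4N, and the part of depth in these shares was not tested. In Cyp2f2-dominant cells with later numbers, 2 of 9 measured male-biased genes were higher in 4N and 0 lower (median log2 0.34), against 8.73% of all measured genes higher and 3.05% lower. In those with earlier numbers, 5 of 15 were higher and 2 lower (median log2 0.04), against 14.2% and 5.46% of all. The median summed level of a cell was 5757 CPM in 2N and 4918 CPM in 4N over the later, and 42989 and 26015 CPM over the earlier numbers. In the same cells the urinary protein genes gave 0 of 7 higher over the later numbers and 2 higher and 2 lower of 10 over the earlier ones, the latter near the share of all genes higher.

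Genes of cholesterol synthesis and of the unfolded protein response were also higher in the 4N pool. Of 17 cholesterol synthesis genes measured, 9 were higher in the 4N pool and 0 lower (median log2 0.75). Fdps, which makes farnesyl diphosphate, had a median of 37.9 CPM in 2N and 202.92 CPM in 4N cells and pool levels of 60.7 and 190 CPM. Msmo1 and Cyp51, enzymes that demethylate sterols, were at 53.4 and 138.73 CPM and at 40.6 and 92.7 CPM. Of 20 genes of the unfolded protein response, the response to misfolded protein in the endoplasmic reticulum, 7 were higher and 0 lower (median log2 0.46). Creld2, a secreted factor of that response, was at 40.1 and 107.34 CPM, and the chaperone Hspa5 (BiP) at 501 and 857 CPM. In Cyp2f2-dominant cells with later numbers, Fdps was at 37.5 CPM in 2N and 40.0 CPM in 4N, and Hspa5 at 431 and 434 CPM. In those with earlier numbers, Fdps was at 193.14 and 243.09 CPM and Hspa5 at 1004 and 1293 CPM. For both genes the step between the sets of numbers was larger than the step between the ploidy classes within each. Of the cholesterol genes in these cells, 0 of 16 were higher and 1 lower over the later and 2 of 18 higher over the earlier numbers, and of the genes of the unfolded protein response 0 of 20 and 1 of 20 were higher, against 8.73% and 14.2% of all genes.

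The other metabolic groups were mixed in the whole pools. Of 12 fatty acid synthesis genes 4 were higher and 0 lower (median log2 0.27): Scd1, the stearoyl-CoA desaturase, was at 404 and 1303 CPM, Elovl6, an elongase, at 66 and 126.47 CPM, Mlxipl, the carbohydrate-sensing transcription factor ChREBP, at 88 and 144.80 CPM, and Gpam, which starts triglyceride synthesis, at 7.43 and 11.5 CPM. Gpam passed the limit of 10 CPM through the 4N pool alone. In Cyp2f2-dominant cells with later numbers 4 of 12 were higher, against 8.73% of all genes, and all 12 had a positive difference (median log2 0.37), with Fasn, the fatty acid synthase, at 214.48 CPM in 2N and 394 CPM in 4N. In those with earlier numbers 1 of 12 was higher (median log2 0.08), and Fasn was at 185.11 and 191.65 CPM. In Cyp2f2-dominant 8N cells with later numbers Fasn was at 163.25 CPM, below both. Of 17 genes of bile acid synthesis and transport, 7 were higher and 0 lower, and of 25 drug metabolism genes, 11 were higher and 2 lower, Cyp2f2 and Fmo5. Of these genes, 11 are also on the pericentral list, among them Cyp27a1, Cyp1a2 and Cyp3a11. Of 14 acute phase genes 3 were higher and 2 lower, and single cells carried them: Saa3, a serum amyloid gene, was at 56.4 and 20.7 CPM, and 1 cell held 49.3% of its 2N counts.

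Among the 12 genes with the largest folds upward that kept their direction when cells were weighted equally, thinned to 1 depth, or stripped of their top cell, 5 are named above: Slc1a2, Elovl3, Lect2, Glul and Tbx3. The others were Mup2 (0.792 and 11.4 CPM), Fitm1, a lipid droplet protein (4.26 and 56.4 CPM), Cyp2c69 (1.58 and 18.8 CPM), Lhpp, a phosphatase (3.86 and 32.9 CPM), Gm2788, a noncoding transcript (2.87 and 24.3 CPM), Egfros (4.51 and 27.7 CPM) and Gstm2, a glutathione transferase (7.48 and 43.8 CPM). Each of these 7 was counted in under 20% of 2N cells. Their 2N levels lay below the limit of 10 CPM, so they passed it through the 4N pool alone, as did Slc1a2, Elovl3 and Tbx3. The checks of direction reuse the same cells, so keeping direction is not independent support. Egfros lies inside Egfr on the other strand, and Gm2788 overlaps E2f8 and Nav2, so their counts may hold reads of those genes. The 12 largest downward were Ccnd3, Mmd2, Spink3, a trypsin inhibitor, Wfdc2, a secreted whey-acidic-protein family member, Tagln2, an actin-binding protein, Gsta1, a glutathione transferase, Cyp2a4, Pafah1b3, Apoa4, Slc16a5, a monocarboxylate transporter family member, Saa3 and Cyp2b9. Ccnd3, cyclin D3, which drives cells from G1 into S phase, had the largest downward fold, 46.9 CPM in 2N (44 to 50) against 7.80 CPM in 4N (6.74 to 8.98) and 8.92 CPM in 8N. A few 2N cells carry much of that 2N level, among them P60_2N_118 at 1051 CPM and P60_2N_113 at 924 CPM. A level without these cells is not given here. Tagln2 was at 25.8 and 7.52 CPM, Spink3 at 13.1 and 3.46 CPM, and Gsta1 at 50.6 and 15 CPM. Of those of the 12 whose levels are given in the text, Ccnd3, Tagln2, Spink3 and Mmd2 passed the limit of 10 CPM through the 2N pool alone.

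Genes were also counted within narrower sets of cells. These sets are not matched in position, since Cyp2e1 was still higher in 4N by 0.55 over the later and 0.72 over the earlier numbers on the log2 scale, and a label number does not tie a cell of one pool to one of the other. Among Cyp2f2-dominant cells, 87 4N against 88 later and 29 earlier 2N cells, 468 genes (6.81%) of 6868 were at least 1.5-fold higher in 4N and 220 (3.2%) lower. Among those with later numbers, 26 4N against 88 2N, 610 (8.73%) of 6986 were higher and 3.05% lower. Among those with earlier numbers, 61 4N against 29 2N, 943 (14.2%) of 6629 were higher and 362 (5.46%) lower, on 7231907 and 2241952 counts. Depth moved with ploidy here, with medians of 290456 counts per 4N and 176098 per 2N cell over the later and 115800 and 63792 over the earlier numbers, and its part in these counts was not tested. Pericentral genes were still the higher group over the earlier numbers, with 12 of 20 higher and 1 lower (median log2 0.67), and gave 4 of 19 higher and 0 lower over the later ones (median log2 0.29). The medians of all measured genes were 0.113 and 0.13 in these sets. Periportal genes had a median of 0.01 in both, with 0 of 27 higher in either, and 0 lower over the later and 2 lower over the earlier numbers. Of the genes past 1.5-fold over both the earlier and the later numbers, 73.6% differed in the same direction and 46 in opposite directions. Both sets held more higher than lower genes, which by itself raises the share in the same direction, and no share to set beside it was computed.

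**Figure D4:**
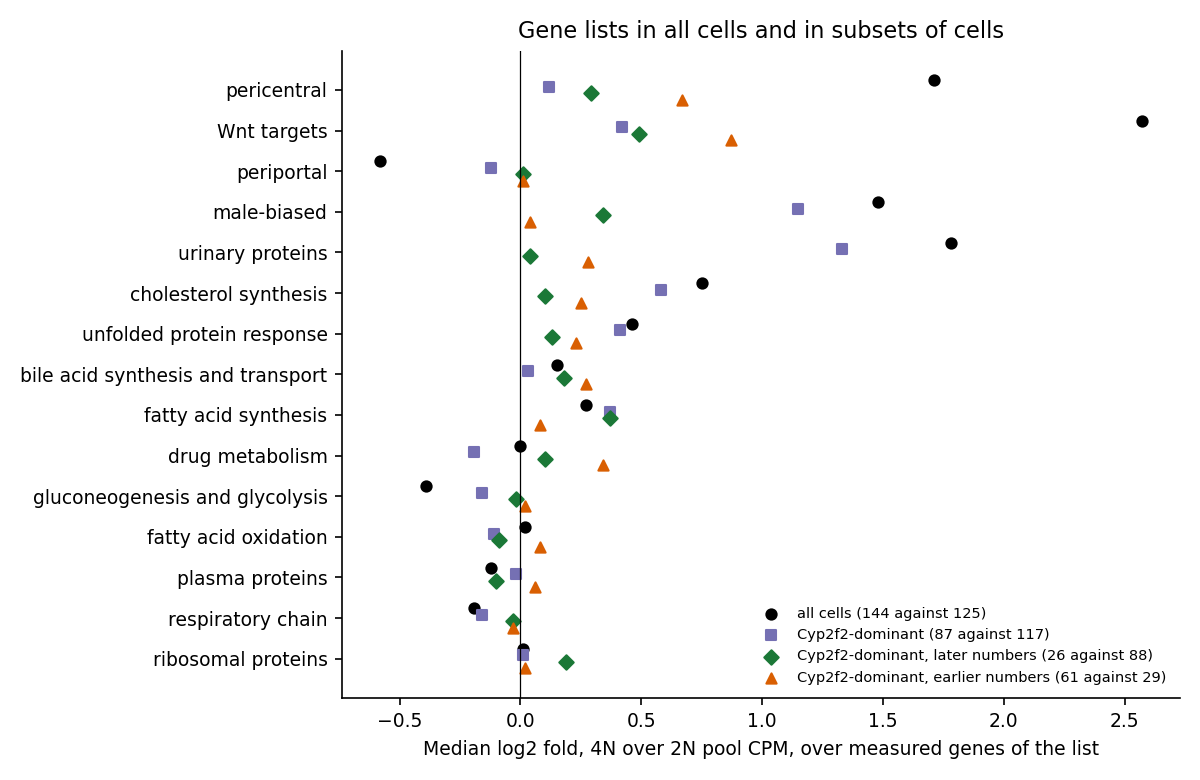
Median log2 difference between 4N and 2N pool CPM (x axis) of the measured genes of 15 lists (y axis), in all cells (black circles), Cyp2f2-dominant cells (purple squares), and Cyp2f2-dominant cells with later (green diamonds) or earlier numbers (orange triangles). Male-biased and urinary protein genes stand at 1.48 and 1.78 in all cells and at 0.34 and 0.04 over the later numbers; directions are relative to the other genes, and against the spike-ins the periportal median of all cells was 0.07.

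Of 6190 genes measured in all 4 of these sets of cells, 46 were at least 1.5-fold higher in 4N in each and 9 lower in each. The sets overlap, and these genes were picked after their values were seen, so the agreement is a description. Values of these genes over the later and the earlier numbers are those of Cyp2f2-dominant cells. Ccnd3 (chr17:47505051-47599691, plus strand, its end overlapping Bysl on the other strand) was one of the 9. Over the later numbers it ranged from 0 to 1051 CPM in 2N and from 0 to 304.72 CPM in 4N cells, with a count in 44 of 88 and a pool level of 49.6 CPM, against 11 of 26 and 14.7 CPM in 4N. Over the earlier numbers it was counted in 37.9% of 2N and 18% of 4N cells, at 31.7 and 4.29 CPM. A few 2N cells carry much of it, the highest holding 28.3% of the counts of the pool, and the plot of single genes by cell shows the same spread from 0 in both classes. Over the earlier numbers P60_2N_6 was at 1069 CPM and the next highest 2N cell at 108.4 CPM. Over the later numbers P60_2N_118 and P60_2N_113 were at 1051 and 924 CPM, so the 2N levels in both sets rest on few cells. Snord118, the U8 small nucleolar RNA needed to process ribosomal RNA (chr11:69073427-69073561, plus strand), was the most abundant of the 9. Its transcript in GENCODE M21 is shown, 5′ to 3′ as DNA letters, because it is short and untranslated, unlike the messenger RNAs around it in this group.
Snord118: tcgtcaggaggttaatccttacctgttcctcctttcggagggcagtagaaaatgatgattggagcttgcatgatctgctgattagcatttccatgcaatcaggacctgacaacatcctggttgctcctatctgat
Snord118 was counted in 97.6% of 2N and 99.3% of 4N cells, with medians of 504 and 166.68 CPM and pool levels of 708 (696 to 720) and 299.26 CPM (292.498 to 306.13). Its levels were 757 and 356 CPM over the later and 422 and 244.057 CPM over the earlier numbers, and 326.90 CPM in the 8N pool. Whether the counts come from this small nucleolar RNA or from another transcript over the same bases was not tested. Cd36, a fatty acid transporter (chr5:17781690-17888801, minus strand), was at 55.8 and 24.7 CPM, at 58.9 and 33.8 CPM over the later and at 10.3 and 3.04 CPM over the earlier numbers. In the bulk libraries Cd36 was higher in CV than in PV by 4.48 on the log2 scale. Also lower in each set were Wfdc2 (41.1 and 11 CPM), Mmd2 (10.5 and 2.65 CPM), Fam46a, Trmt2a, a tRNA methyltransferase, and 2410004B18Rik.

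Glul was among the 46 genes higher in each set. In Cyp2f2-dominant cells with later numbers it had a count in 39.8% of 2N and 73.1% of 4N cells, with medians of 0 and 20 CPM, and with earlier numbers in 44.8% and 65.6%, with medians of 0 and 13.3 CPM. These cells were not thinned. Their median depth was 176098 counts in 2N and 290456 in 4N over the later, and 63792 and 115800 over the earlier numbers. A deeper cell more often shows a count of a low gene, and the part of depth here was not tested. In Cyp2e1-dominant 4N cells the Glul median was 49.8 CPM, with no count in the lowest cell. Slco1a1 was at 13.4 and 22.6 CPM over the later and at 283.68 and 428 CPM over the earlier numbers. Cyp2c50, a pericentral cytochrome P450, was at 112.032 and 181.92 CPM and at 81.2 and 184.60 CPM. The clock gene Per3 was at 15 and 24.7 CPM and at 20.1 and 52.7 CPM. Other genes of the 46, picked here after their values were seen, were low: Ncapd3, a condensin subunit, was at 7.20 and 15.2 CPM over the later and at 7.58 and 17 CPM over the earlier numbers, and Kdm1a, a histone demethylase, at 7.57 and 15.9 CPM and at 1.34 and 10.1 CPM. In each of these sets Ncapd3 and Kdm1a passed the limit of 10 CPM through the 4N cells alone. Most of the 46 were low, with a median of 16.8 CPM in the 4N pool. How many others of the 46 passed the limit through the 4N cells alone was not counted. Gm15883, also among the 46, lies inside Cyp2f2 on the other strand (chr7:27124481-27130674), and whether strand was counted is not given in the sources used here.

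**Figure D5:**
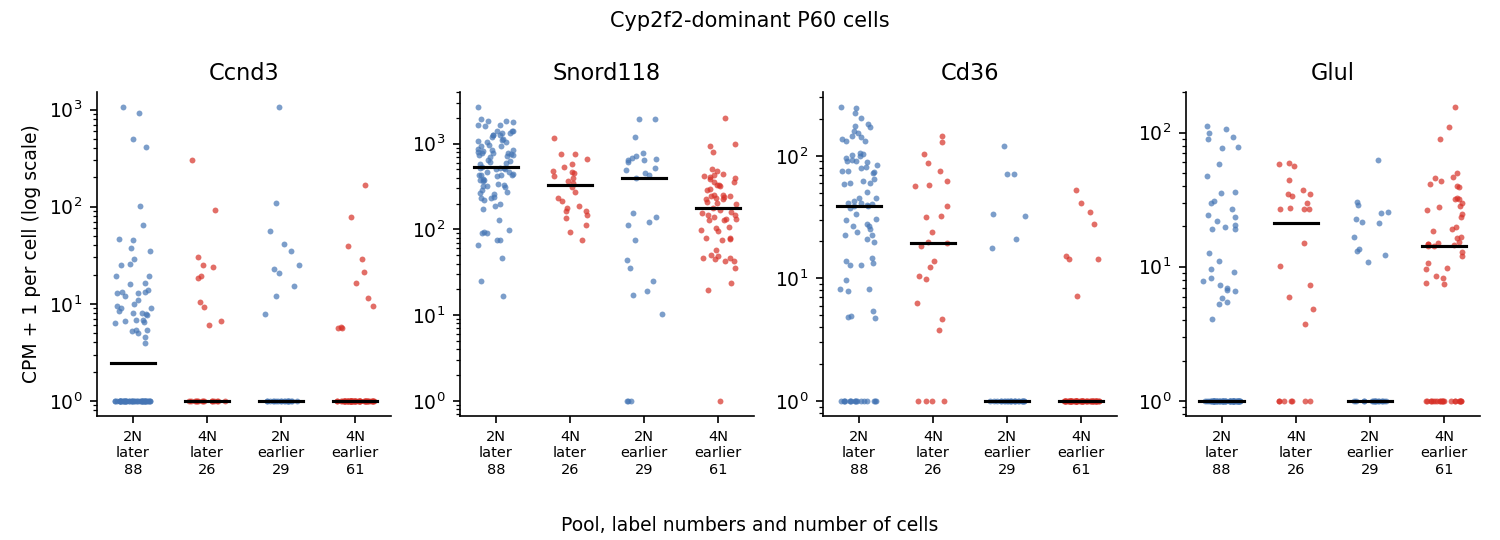
CPM + 1 per cell (y axis, log scale) of 4 genes in Cyp2f2-dominant cells, by ploidy and label numbers (x axis, number of cells below each name); each point is a cell, the bar is the median, and points at 1 have no count. The medians of Snord118 and Cd36 are lower in 4N than in 2N over the later numbers, that of Glul is higher in 4N in both sets, and the single cells overlap in every panel. Cells were not thinned, and their median depth was higher in 4N in both sets.

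Several groups that could have followed ploidy did not pass 1.5-fold. None of 28 respiratory chain genes and none of 82 ribosomal protein genes did, with median log2 differences of -0.19 and 0.01, and none of 26 plasma protein genes did either. All 28 respiratory chain genes were below 0 in the whole pools, but in Cyp2f2-dominant cells 11 of 28 were above 0 over the later and 12 over the earlier numbers, and 1 of 28 over both sets pooled. Alb was at 26023 and 19095 CPM, and Ttr, the thyroid hormone carrier transthyretin, at 13771 and 10312 CPM, and both were also the lower in 4N in Cyp2f2-dominant cells with later or with earlier numbers, Alb at 26022 and 18418 CPM over the later ones. Of 13 genes of gluconeogenesis and glycolysis none passed either (median log2 -0.39). Of 29 cell cycle genes 2 were measured, Pcna at 25.4 and 22 CPM and Tyms at 8.96 and 12.6 CPM, and of 20 genes of cytokinesis and polyploidisation 4 were measured and none passed. Of 9 p53 target genes measured 1 was higher, Gdf15, at 16.5 and 30.4 CPM. Cdkn1a, the cell cycle inhibitor p21, was at 13.6 and 15.1 CPM in the whole pools, and in Cyp2f2-dominant cells with later numbers at 15.6 CPM in 2N and 31.8 CPM in 4N, with a count in 36.4% and 76.9% of cells. These cells were not thinned, with median depths of 176098 and 290456 counts. In them 2 of 9 p53 targets were higher and 1 lower, against 8.73% and 3.05% of all genes. Over the earlier numbers 2 of 8 were higher and 1 lower (median log2 0.05), against 14.2% and 5.46% of all. The level of Cdkn1a over the earlier numbers is not given here, so its difference stands for the later numbers alone. Of 23 transcription factors of hepatocytes 1 was higher, Tbx3, and Hnf4a, which maintains hepatocyte identity, was at 315.14 and 272.36 CPM.

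The amount of RNA per cell was read as gene counts per ERCC count, under the condition, which the labels do not state, that every well got the same amount of spike-ins. The ratio ran from 4.95 to 2288 in 2N cells with a median of 59.3, and from 8.02 to 2485 in 4N cells with a median of 122.88, while the 8N median was 127.52. The 4N median was thus 2.07 times the 2N median, but the ratio spanned 462-fold within 2N and 310-fold within 4N. Cells with neighbouring numbers differed by a median of 1.17-fold in 2N and 1.26-fold in 4N, and any 2 cells of a class by 1.43-fold and 3.55-fold. Over the later numbers, where each class formed 1 level, the medians were 58.3 in 2N, 105.989 in 4N and 113.16 in 8N, a ratio of 1.82 between 4N and 2N. There 4 2N cells lay at or above the lowest 4N cell and 11 4N cells at or below the highest 2N cell. Over the earlier numbers the medians were 98.4 and 170.74, a ratio of 1.74, but in the Cyp2f2-dominant cells among them the ratio of the medians was 0.629. Pooled sums of those same Cyp2f2-dominant cells gave a 4N to 2N ratio of 1.4, so the direction there depended on the summary used. Set against spike-ins, 6456 of 6986 genes (92.4%) were at least 1.5-fold higher in 4N among Cyp2f2-dominant cells with later numbers, and 12 lower. Among those with earlier numbers 51.6% of 6629 genes were higher and 88 genes lower.

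At equal depth a 4N cell showed more genes. The median cell had 5852 genes with a count in 2N and 6673.5 in 4N. After each cell was thinned to 55000 counts, which left out 16 2N and 10 4N cells, the medians were 4898 and 5306.5, a difference of 408.5 genes. At 20000 counts the difference was 123.5 genes, so its size depends on the depth chosen. Among Cyp2f2-dominant cells the difference was 516.5 genes over the later and 359 over the earlier numbers. The share of cells with a count was higher in 4N for 71.1% of the 6907 measured genes before thinning, with a median of 4.33 percentage points, and for 59% after it, with a median of 1.73 points. After thinning, 3.78% of genes had a share at least 20 points higher in 4N and 0.869% at least 20 points lower. Cyp2e1 was counted in 67% of thinned 2N and 99.3% of thinned 4N cells, and Ccnd3 in 32.1% and 18.7%.

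Variation between cells depended on which cells were compared. Over 1367 genes with a mean thinned count of at least 5, the median ratio of the coefficient of variation in 4N to that in 2N was 1.05, and 38.5% of genes varied less in 4N. Over Cyp2f2-dominant cells with later numbers, 26 4N and 85 2N thinned cells, the median ratio was 0.863 and 79.2% of 1463 genes varied less in 4N. Over those with earlier numbers, 52 4N and 16 2N thinned cells, it was 1.01 and 48.8% of 1217 genes did. Lower variation in 4N was thus the case for most genes over the later numbers and not over the earlier ones. The class with fewer cells was 4N over the later and 2N over the earlier numbers. The later 2N cells also include P60_2N_85, with 2691 genes after thinning against a median of 4898 in its set. The part of cell number and of single cells in these ratios was not tested.

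The nuclei of the same age gave little of the same order. Of 690 genes past 1.5-fold in cells and counted in nuclei, 392 (56.8%) differed in the same direction between 4N and 2N nuclei, against 51.4% of all 6643 genes. Cyp2e1 was at 1077 CPM in the 2N and 1481 CPM in the 4N nuclei, and Cyp2f2 at 466 and 356 CPM, the direction seen in cells. Glul went the other way, at 425 and 243.67 CPM, as did Slc1a2 at 475 and 291.35 CPM. Ccnd3 was at 211.23 and 246.013 CPM and Snord118 at 1052 and 1064 CPM, so their difference in cells was not seen in nuclei. Cd36 was lower in 4N nuclei too, at 27.2 and 6.80 CPM. A nucleus labelled 4N may come from a cell of another ploidy, since hepatocytes can hold more than 1 nucleus, so the classes of cells and nuclei do not match one to one.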

How the data were processed

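Counts per gene symbol and ERCC spike-in were deposited by the authors as whole numbers without normalization, in 1 table an assay, with 40824 genes and 92 spike-ins. Per the submitters' processing notes, the tools were Bowtie2, featureCounts 1.5.3 and 2.0.0, HISAT2 2.1.0, HTSeq 0.6.0, SAMtools 1.3.1, TopHat, TopHat2 2.1.0, Trimmomatic 0.39 and UMI-tools 0.5.0, with GRCm38 and mm10, in no stated role or order; whether counts are reads or molecules, and whether strand was used, is not given in the sources used here. Of 4514 columns, 857 were used and 3657 were not. The 144 4N, 125 2N and 83 8N cells, 1 a sample, were grouped by label. The cells of a class were summed into 1 pool, as no label names an animal, so no test was run and edgeR 4.0.16 (R 4.3.3) served only for TMM factors. Levels are CPM computed here without spike-ins. Intervals (95%, exact Poisson for CPM and exact binomial for shares) cover counting error only, and amplified reads are not independent molecules. A gene was measured at 10 CPM in 1 pool with a count in 10% of its cells, and counted as higher or lower past 1.5-fold. Thinning used 55000 counts a cell with a fixed seed. The position score was the log2 ratio of Cyp2e1 to Cyp2f2 with 10 CPM added to each. Later numbers start after the last step of over 4-fold in gene counts per ERCC count between neighbouring label numbers whose medians of 5 cells on either side differ over 3-fold. Named genes were the 12 largest folds each way that kept their direction and 1.3-fold under equal weight, thinning and without the top cell (702 of 730 genes qualified), both markers, members of lists past 1.5-fold, and genes alike in every set of cells, the last chosen after their values were seen. The members and the 34 gene lists were chosen with earlier results of these data known. In the table of nuclei, 25 gene names had turned into dates and were left out. Bulk levels were mean CPM of 2 libraries with 1 added, for genes at 5 CPM or more. Coordinates are GENCODE M21 on GRCm38. The calculation was tested on simulated data in Python 3.11.15 with NumPy 2.4.6, pandas 2.3.3, SciPy 1.17.1 and matplotlib 3.10.9.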

Additional observations from a re-analysis of the deposited data

How the results depend on the processing

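The directions and sizes below are of pools without replicates. No paired analysis was possible because each ploidy class is 1 pool with no test. The main values were 7.12% of measured genes higher and 3.45% lower in 4N, log2 differences of 2.31 for Cyp2e1 and -0.68 for Cyp2f2, and list medians of 1.71 (pericentral) and -0.58 (periportal). With equal weight per cell Cyp2e1 was 2.43 and Cyp2f2 -0.77, in thinned cells 2.35 and -0.78 with 6.96% of genes lower, without the top cell of each gene 2.64 and -0.71, and with median-of-ratios factors Cyp2f2 was -0.70. Relative to the spike-ins, which moved the median gene to 0.667, 60.7% of genes were higher and 0.236% lower, Cyp2e1 was 2.95, Cyp2f2 -0.03, the pericentral median 2.35 and the periportal median reversed to 0.07. Weighting 3 ranges of the Cyp2e1 to Cyp2f2 ratio equally narrows the differences in both genes by construction. With these 3 position ranges, 2.24% of genes were lower, Cyp2e1 was 0.18, Cyp2f2 reversed to 0.02, and the list medians were 0.27 and -0.09. In Cyp2f2-dominant cells these 4 values were 1.22, -0.11, 0.12 and -0.12, over the later numbers 0.55, 0.10 (reversed), 0.29 and 0.01 (reversed), and over the earlier numbers 0.72, -0.14, 0.67 and 0.01 (reversed), with 14.2% of genes higher and 5.46% lower. These 3 settings were chosen after seeing the data; they select cells by Cyp2e1 and Cyp2f2. With at least 10 counts as the only filter, 17.4% of genes were higher and 11.3% lower, at 50 CPM or more 6.12% and 2.42%, and at 2-fold 2.68% and 0.666%. The RNA ratio of 2.07 was 1.57 from pooled sums. The difference of 408.5 genes per cell was 123.5 at 20000 counts and 821.5 without thinning. The difference in the Cyp2e1-rich share, 41.6 points, was 15.4 over the later numbers. The ratio of variation, 1.05, was 1.11 at 20000 counts and 1.18 for genes with a mean count of 20, and 0.955 within position ranges (reversed), 0.863 over the later (reversed) and 1.01 over the earlier numbers. The correlation with CV over PV, 0.395, was 0.215 as a Spearman correlation, 0.379 to 0.386 without 1 bulk replicate, 0.127 within position ranges, and 0.0424, 0.0858 and 0.0995 in the 3 sets of Cyp2f2-dominant cells. The share of genes alike in nuclei, 56.8%, was 51.1% in Cyp2f2-dominant cells. Fewer or more genes pass a stricter or looser filter by construction, and position ranges narrow the differences in Cyp2e1 and Cyp2f2 by construction. The cause of the other moves was not tested. Depth limits the low genes: at 10 CPM a cell of median depth holds about 1 count.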
